A study of Arabidopsis thaliana with 104 samples.

Results

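The 5 genes described here are PHO1 (AT3G23430) and its relatives PHO1;H1 (AT1G68740), PHO1;H2 (AT2G03260), PHO1;H3 (AT1G14040) and PHO1;H10 (AT1G69480) of Arabidopsis thaliana. They were picked by locus identifier and not by a measured value, though with earlier results of these data known, out of 27206 loci in a table of read counts. All 5 passed the filter on low counts, which 18926 loci passed. The counts came from poly(A) RNA of whole seedlings, so each value mixes root and shoot.

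The seedlings germinated for 7 days on 1 mM phosphate (Pi) with 0.5% sucrose. They then spent 12 days without sucrose on 50 µM Pi (low Pi) or 625 µM Pi (high Pi), with a bacterial synthetic community (SynCom) or with no bacteria (noBact). 3 genotypes were grown under each of the 4 conditions: the double mutant phr1 phl1, the single mutant phr1 and the wild type Col-0. Which phr1 and phl1 alleles were used is not stated by the labels. The libraries fall into 12 groups: 10 libraries in each phr1 and each Col-0 group, as 2 from each of the experiments A to E, and 6 in each phr1 phl1 group, from the experiments C, D and E.

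PHO1 proteins carry an SPX domain, which senses the cell's phosphate status through inositol polyphosphates, and a membrane-spanning EXS domain. PHO1 moves Pi out of cells of the root stele into the xylem, and without it the shoot is starved of Pi. PHR1 and its close relative PHL1 are the MYB-type transcription factors that switch on most of the Pi starvation programme, through a DNA element called P1BS. PHO1 is further held in check by the repressors WRKY6 and WRKY42, which bind W-boxes in its promoter, and by PHO2, a ubiquitin-conjugating enzyme that lowers the amount of PHO1 protein and is itself cut back by the microRNA miR399.

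Of the relatives, PHO1;H1 overlaps with PHO1 in Pi transfer to the shoot, and PHO1;H3 is known to limit that transfer under zinc deficiency. PHO1;H10 is known from responses to wounding and abscisic acid.

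By the RefSeq annotation of TAIR10.1, PHO1 lies on the minus strand of chromosome 3 at positions 8387398 to 8393467, with 15 exons. PHO1;H1 is on the minus strand of chromosome 1 at 25812449 to 25816983 with 11 exons, and PHO1;H3 on the plus strand of the same chromosome at 4810115 to 4814724 with 12 exons. PHO1;H10 is also on chromosome 1, on the minus strand at 26113990 to 26117955 with 12 exons. Its end overlaps the plus-strand gene AT1G69470 by 8 bases, and the libraries did not keep strand, so reads there could come from either gene. PHO1;H2 is on the minus strand of chromosome 2 at 987934 to 992332 with 12 exons, beside its relatives AT2G03240 and AT2G03250. How reads that fit more than 1 relative were assigned is not stated by the labels.

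The P1BS element was searched as GNATATNC, on both strands, in the 1000 bases before the annotated gene start and in the 1000 bases before the start codon of each gene. It was present in the first window of PHO1;H3 and in the second window of PHO1;H1, where it falls in an exon of the 5′ UTR, 331 bases before the start codon. No match was found for PHO1, PHO1;H2 or PHO1;H10 in either window. Of 27443 protein-coding genes, 20.3% held the element in the first window and 18.7% in the second, against 1 of the 5 genes in each. The sites are shown because PHO1;H1 is the gene that differed most between the genotypes. They are from RefSeq's TAIR10.1 sequence, read 5′ to 3′ along the gene's strand, with the matched bases in capitals.
PHO1;H1, chr1:25816888-25816915, minus strand: gaagcacggtGGATATACactggcgaga
PHO1;H3, chr1:4809168-4809195, plus strand: tatacaaacaGTATATGCctaacattta

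The core of the W-box, TTGAC on either strand (GTCAA where it lies on the opposite strand), occurred 4 times in the 1000 bases before the PHO1 gene start. All 5 genes held it, as did 88.1% of the 27443 genes. A pair of the PHO1 sites, 982 and 435 bases before the gene start, is shown because WRKY6 and WRKY42 are known to act on this promoter.
PHO1, chr3:8394435-8394459, minus strand: atttatttatTTGACatcattagtt
PHO1, chr3:8393888-8393912, minus strand: ggtctcgaacTTGACaaaaatatat

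Library totals ran from 955174 to 9550846 counts, with a median of 4335782. PHR1 was measured at 20.6 to 56.9 CPM (counts divided by the TMM-scaled library total and multiplied by 1e+06) in phr1 phl1, at 19.8 to 53.8 CPM in phr1 and at 43.8 to 86.6 CPM in Col-0, with medians of 37.1, 34.1 and 69.1 CPM. Its transcript was thus present in both mutants, and the ranges overlapped. PHL1 transcript was higher in phr1 phl1, at 42.1 to 972 CPM, than in Col-0, at 6.66 to 22.8 CPM. Counts over a whole gene do not show which part of it the reads came from, so this is no check of the phl1 mutation, and the genotypes are named by their labels. 4 libraries stood apart by their total or by their distance from the rest of their group: library 2 of experiment D in the low-Pi SynCom group of Col-0, library 1 of experiment D in the high-Pi noBact groups of phr1 and phr1 phl1, and library 2 of experiment E in the low-Pi noBact group of phr1 phl1. The summed level of 10 photosynthesis genes, a marker of shoot tissue, had a median of 28500 CPM (1558 to 47760) at low Pi with SynCom in Col-0, against 52600 CPM (46040 to 62870) at high Pi with SynCom. All 10 fell by the test used below. In phr1 phl1 the median was 34530 CPM at low Pi and 51780 CPM at high Pi, with 4 of the 10 called lower, and in phr1 it was 31010 and 50410 CPM, with 7 called lower. The summed level of 12 genes of the root stele, endodermis and xylem loading was 344 CPM (279 to 514) at low Pi and 369 CPM (243 to 483) at high Pi in Col-0 with SynCom, and 6 of the 11 that were tested rose while 2 fell. In phr1 phl1 it was 298 CPM at low Pi and 263 CPM at high Pi, with 1 called higher, and in phr1 it was 269 and 313 CPM, with 2 called lower. In phr1 phl1, 4 root epidermis and hair genes had a median sum of 3.72 CPM at low Pi and 3.78 CPM at high Pi. The medians were 32.2 and 27.3 CPM in phr1, and 47.5 and 25.1 CPM in Col-0. Libraries of Col-0 ranged from 4.168 to 90.97 CPM at low Pi and from 0.7408 to 55.41 CPM at high Pi. The phr1 phl1 medians cover experiments C, D and E only, so these medians set unlike experiments side by side. With the experiment in the model, phr1 phl1 against Col-0 with SynCom had 3 of the 4 called lower at low Pi and none at high Pi. At low against high Pi, 3 of the 4 rose in Col-0 and none was called in the mutants. No marker of any list was at 0 in all libraries. The part of these shifts in the results was not tested, and in whole seedlings fewer cells of a type and less RNA per cell cannot be told apart.

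Levels differed widely among the 5 genes. Compared per kb of transcript, in low-Pi SynCom libraries of Col-0, PHO1 had the highest mean level, 65.9 ± 17.5 CPM per kb (SD, n = 10). PHO1;H1 followed at 17.3 ± 13.0 CPM per kb, then PHO1;H3 at 3.97 ± 0.60, PHO1;H2 at 2.374 ± 1.997 and PHO1;H10 at 0.940 ± 0.583 CPM per kb. At high Pi with SynCom PHO1 was again the highest, at 39.0 ± 15.6 CPM per kb, with PHO1;H3 at 2.79 ± 1.20, PHO1;H2 at 2.50 ± 2.13, PHO1;H1 at 1.24 ± 0.83 and PHO1;H10 at 0.512 ± 0.435 CPM per kb. PHO1;H1 thus took the second place at low Pi and the fourth at high Pi, with wide spreads among the 3 middle genes at high Pi.

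**Figure D1:**
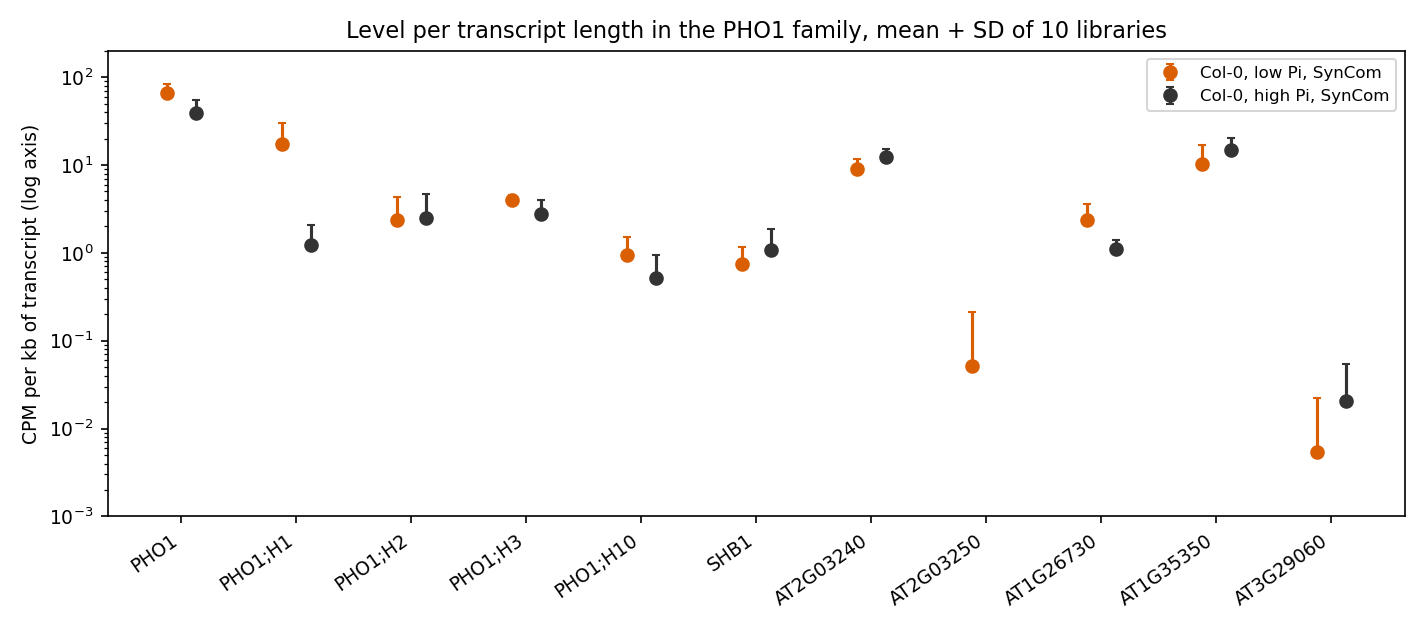
Mean level per kb of transcript, in CPM per kb on a log axis, of the 11 PHO1 family genes in Col-0 with SynCom, at low Pi and at high Pi, with the upper SD over 10 libraries. PHO1 stands highest at both Pi levels (65.9 and 39.0 CPM per kb), and PHO1;H1 shows a wide gap between low Pi (17.3) and high Pi (1.24). AT2G03250, at 0 at high Pi, is not drawn there.

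With SynCom, low Pi raised PHO1;H1 in phr1 and in Col-0 and raised PHO1 in all 3 genotypes. The test for low against high Pi was edgeR's quasi-likelihood F test, adjusted by Benjamini-Hochberg over all 18926 loci at a threshold of 0.05. In phr1 phl1 1 of the 5 genes passed it, where 19.4% of all loci did. In phr1 2 of the 5 passed, against 24.5% of all loci, and in Col-0 4 of the 5 passed, against 50% of all loci. With 5 genes these shares say little beside such a background, and the description rests on the single genes.

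PHO1;H1 had the widest range of Pi effects of the 5. In phr1 phl1 no change was called. Its level was 0.791, 3.02 and 6.54 CPM (lowest, median, highest) at low Pi with SynCom, and 0.663, 1.73 and 4.07 CPM at high Pi. Most libraries of both groups shared the same range, and 2 of the 6 low-Pi libraries were above all high-Pi ones. The log2 difference was 0.76 ± 0.61 (adjusted p = 0.406), these libraries held 2 to 21 counts of the gene at low Pi, and the difference ranged from 0.08 to 1.03 by experiment.

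In phr1 the gene rose. The low-Pi SynCom libraries gave a lowest, median and highest value of 7.47, 15.5 and 27.7 CPM, against 0.395, 3.18 and 11.02 CPM at high Pi. The groups overlapped, with 8 of the 10 low-Pi libraries above every high-Pi library. Low Pi minus high Pi was 2.21 ± 0.30 on the log2 scale (adjusted p = 1.07e-08), positive in 5 of 5 experiments.

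In Col-0 the rise was the largest of the 5 genes. The level had a lowest, median and highest value of 10.4, 54.0 and 155 CPM at low Pi with SynCom, and of 1.13, 3.59 and 9.01 CPM at high Pi with SynCom. All 10 low-Pi libraries were above all 10 high-Pi libraries. The log2 difference was 3.97 ± 0.30 (SE, adjusted p = 5.5e-21), positive in 5 of 5 experiments. Without the 4 libraries that stood apart it was 3.83 (adjusted p = 5.66e-20).

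The difference between the genotypes was itself tested. The Pi effect in phr1 phl1 was lower than in Col-0 by a log2 difference of -3.21 ± 0.74 (adjusted p = 0.00139), in a comparison that 16.5% of all loci passed and PHO1;H1 alone of the 5 genes. The Pi effect in phr1 was lower than in Col-0 by -1.76 ± 0.43 (adjusted p = 0.014), where 3.04% of all loci passed and again this gene alone of the 5. The phr1 interaction was less firm: it missed the threshold in 9 of 18 alternative fits, with adjusted p between 9.58e-05 and 0.657. Without experiment A, B, C or D the adjusted p was 0.166, 0.163, 0.072 or 0.0982. By experiment, the phr1 phl1 interaction ran from -5.15 to 0.227 and was positive in 1 of 3 experiments. That of phr1 ran from -2.14 to 0.886 and was positive in 1 of 5.

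**Figure D2:**
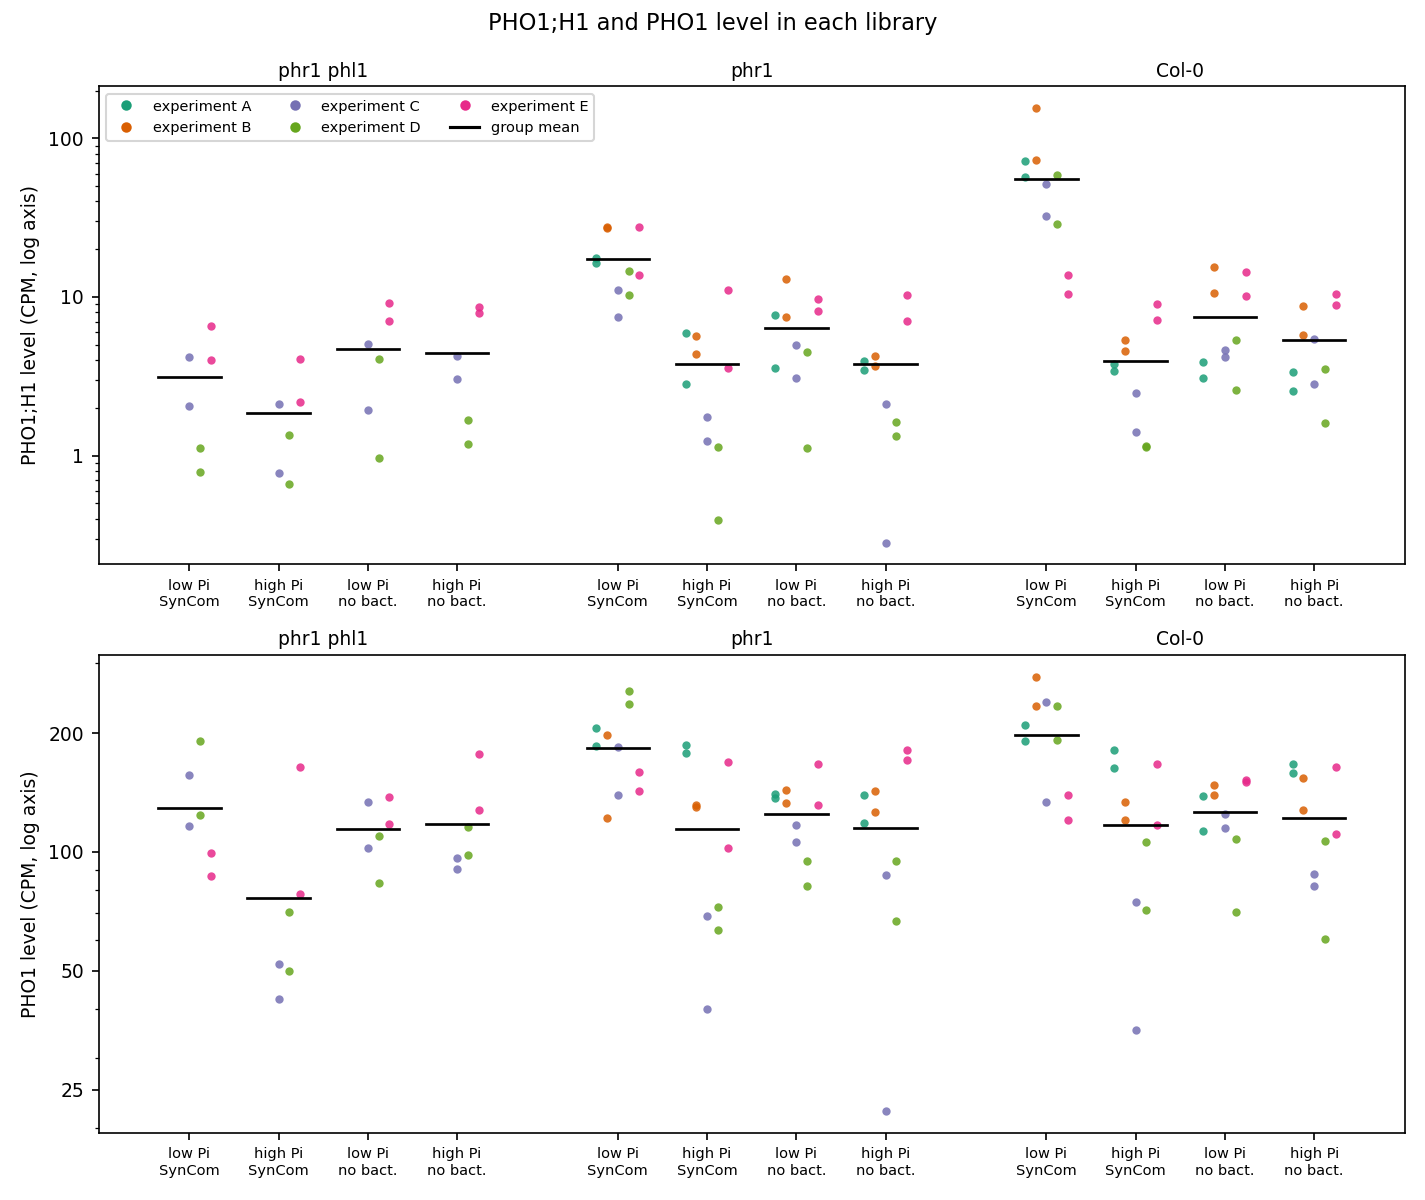
Level of PHO1;H1 and PHO1 in each library, in CPM on a log axis, by group (phr1 phl1, phr1, then Col-0), with points coloured by experiment and a bar at the group mean. For PHO1;H1 the low-Pi SynCom libraries of Col-0 (10.4 to 155 CPM) lie above all high-Pi SynCom libraries of Col-0 (1.13 to 9.01 CPM), and those of phr1 phl1 (0.791 to 6.54 CPM) are the lowest of the low-Pi SynCom groups. PHO1 varies less between the groups.

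At low Pi with SynCom, PHO1;H1 in phr1 phl1 did not overlap with the other genotypes, while phr1 and Col-0 overlapped. All 6 phr1 phl1 libraries were below all 10 libraries of phr1 and all 10 of Col-0. The log2 difference of phr1 phl1 from Col-0 was -4.07 ± 0.40 (adjusted p = 9.46e-14), negative in 3 of 3 experiments, and 36.4% of all loci passed this comparison. Its difference from phr1 was -2.30 ± 0.41 (adjusted p = 0.000209), also negative in 3 of 3 experiments, and 2.83% of all loci passed. The single mutant phr1 in turn differed from Col-0 by -1.77 ± 0.25 (adjusted p = 4.31e-08), negative in 4 of 5 experiments, with 26.3% of all loci called, and 2 of its 10 libraries were below all those of Col-0. Root markers differed between the same groups: in phr1 phl1 against Col-0, 3 of 11 stele, endodermis and xylem-loading genes were called lower and 1 higher, and 3 of 4 epidermis and root hair genes were called lower. In phr1 against Col-0, 5 of the 11 were called lower and 1 higher, and 3 of the 4 lower. Their part in the PHO1;H1 differences was not tested. None of the other 4 genes was called in these 3 comparisons. PHO1;H2 came near the threshold in phr1 phl1 against Col-0, at -0.95 ± 0.40 (adjusted p = 0.052), and passed it in 4 alternative fits.

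Under the other 3 conditions no genotype difference was called for any of the 5 genes. For phr1 phl1 against Col-0, 0.127% of all loci passed at high Pi with SynCom, 0.0634% at low Pi with no bacteria and 0.1% at high Pi with no bacteria. For phr1 phl1 against phr1 the shares were 0.0423%, 0.0687% and 0.0898% in the same order. For phr1 against Col-0 they were 0.122%, 0.0581% and 0.0793%. The values of PHO1;H1 at high Pi with SynCom, 1.86 ± 1.26 CPM in phr1 phl1 (SD, n = 6), 3.79 ± 3.18 CPM in phr1 and 3.94 ± 2.64 CPM in Col-0 (n = 10 each), lay within each other's spread.

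The experiments did not all show this pattern to the same degree, and the genotype by Pi interactions of PHO1;H1 changed sign between them. In phr1 the log2 differences by experiment were 2.01, 2.45, 2.59, 3.93 and 1.45 for A to E. In Col-0 with SynCom the means of the 2 libraries at low Pi were 64.4, 114, 41.7, 43.9 and 12.1 CPM in experiments A to E, against 3.59, 4.96, 1.94, 1.14 and 8.06 CPM at high Pi. Fitted by experiment, these gave 4.15, 4.50, 4.30, 5.22 and 0.57, so experiment E had the smallest rise in both genotypes.

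Experiment E was also the only one in which low-Pi SynCom libraries of phr1, with a mean of 20.7 CPM, stood above those of Col-0, with 12.1 CPM. Left out, it moved the Col-0 difference to 4.46. SPX1, a nuclear Pi sensor and standard marker of Pi starvation, was likewise lowest in experiment E among the low-Pi SynCom libraries of Col-0, with 135 CPM against 538 to 1031 CPM in the other experiments, while its means in the high-Pi SynCom libraries of Col-0 lay between 8.63 and 12.3 CPM.

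**Figure D3:**
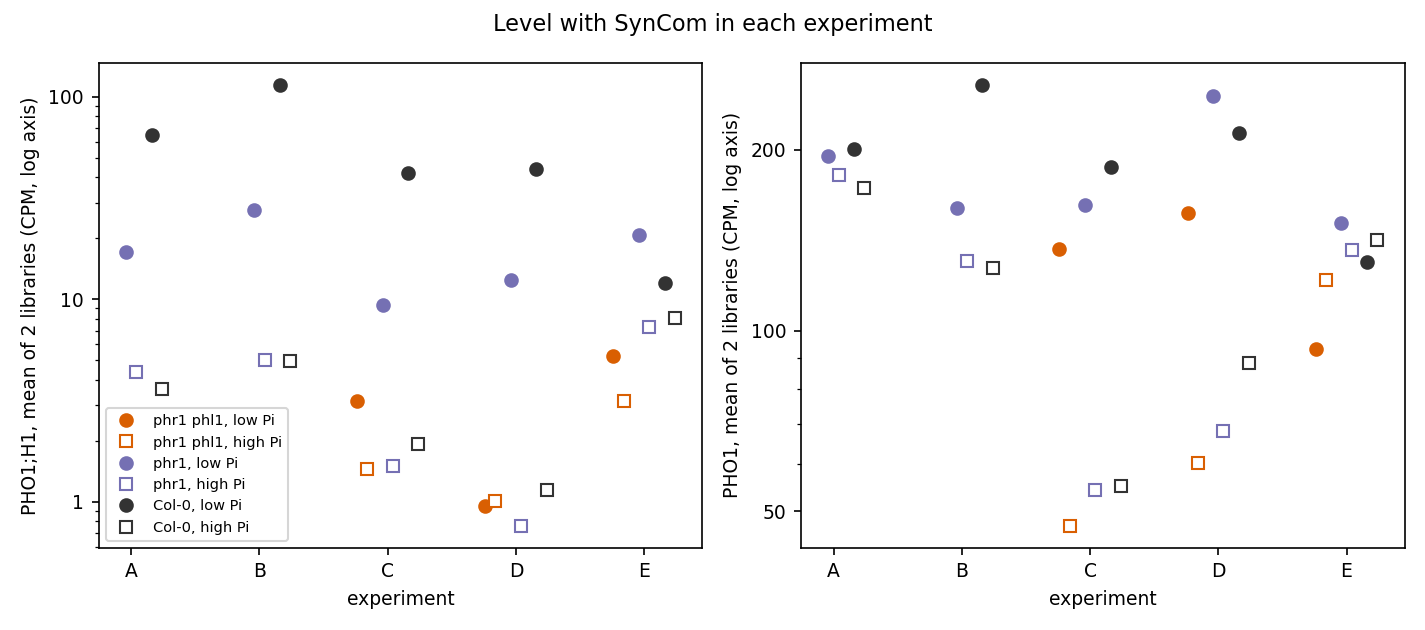
Means of the 2 SynCom libraries of PHO1;H1 and PHO1 in CPM on a log axis, for each experiment and genotype, with filled circles for low Pi and open squares for high Pi. For PHO1;H1 in Col-0 the circles are far above the squares in experiments A to D (41.7 to 114 against 1.14 to 4.96 CPM) and close to them in experiment E (12.1 against 8.06 CPM), and for PHO1 the gap is widest in experiments C and D.

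PHO1 itself rose modestly at low Pi with SynCom, in each genotype. In phr1 phl1 its lowest, median and highest values were 87.0, 120 and 190 CPM at low Pi, and 42.5, 61.3 and 164 CPM at high Pi, with 1 of 6 low-Pi libraries above every high-Pi library. The log2 difference was 0.89 ± 0.25 (adjusted p = 0.0077), positive in 2 of 3 experiments.

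In phr1 the values were 122, 185 and 255 CPM at low Pi and 40.0, 116 and 186 CPM at high Pi, a log2 difference of 0.80 ± 0.19 (adjusted p = 0.00109) that was positive in 5 of 5 experiments. In Col-0 they were 120, 201 and 278 CPM at low Pi and 35.5, 119 and 181 CPM at high Pi, a log2 difference of 0.84 ± 0.19 (adjusted p = 0.000158) that was positive in 4 of 5 experiments. The ranges overlapped in both, with 4 of 10 and 7 of 10 low-Pi libraries above every high-Pi library. The genotype by Pi interaction was 0.05 ± 0.32 for phr1 phl1 (adjusted p = 0.931) and -0.05 ± 0.27 for phr1 (adjusted p = 0.948), so no difference between the genotypes was called, within SEs that are large beside the rise itself.

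The PHO1 rise was largest in experiments C and D in each genotype. In phr1 phl1 the log2 differences were 1.53 and 1.37 in C and D and -0.37 in E. In phr1 they were 0.15, 0.29, 1.57, 1.85 and 0.14 in experiments A to E, and in Col-0 they were 0.20, 1.00, 1.70, 1.28 and -0.13. The phr1 phl1 call was lost in 4 of 18 alternative fits, and without experiment C, D or E the difference was 0.54, 0.62 or 1.44 (adjusted p = 0.275 and 0.237 for C and D). The phr1 call was lost without experiment D (0.50, adjusted p = 0.0831). The Col-0 call held in all 18 alternative fits, at 0.63 to 1.02.

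Among its 12 groups PHO1 was highest at low Pi with SynCom in Col-0 (197 ± 52.3 CPM, SD, n = 10) and phr1 (183 ± 43.0 CPM, n = 10), which did not differ beyond their spread. The next group, phr1 phl1 at low Pi with SynCom, averaged 129 ± 38.4 CPM (n = 6), a gap beyond the spread. From there down to phr1 at high Pi with SynCom (114 ± 52.5 CPM) the means of neighbouring groups were within their spread of each other. The lowest group, phr1 phl1 at high Pi with SynCom (76.3 ± 45.0 CPM), was also within the spread. The phr1 phl1 means cover experiments C, D and E only, so this order sets unlike experiments side by side. With the experiment in the model, edgeR called no PHO1 difference at low Pi with SynCom. For phr1 phl1 it was -0.32 ± 0.23 (SE) against phr1 (adjusted p = 0.498) and -0.41 ± 0.23 against Col-0 (adjusted p = 0.148). The order of PHO1;H1 had the same first and second group, and its only gap beyond the spread was that between phr1 at low Pi with SynCom (17.4 ± 7.58 CPM) and Col-0 at low Pi with no bacteria (7.43 ± 4.79 CPM).

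The other 3 genes had smaller Pi effects. PHO1;H3 was called in Col-0 with SynCom, at 9.04, 12.2 and 14.2 CPM (lowest, median, highest) at low Pi and 3.74, 8.70 and 14.7 CPM at high Pi, with overlapping groups and a log2 difference of 0.51 ± 0.21 (adjusted p = 0.0382) that missed the threshold in 8 of 18 alternative fits, among them those without experiment A, C, D or E (adjusted p = 0.0607, 0.191, 0.0781 and 0.0769, with a difference of 0.34 without C). PHO1;H10 was called in the same comparison at 0.88 ± 0.36 (adjusted p = 0.0339), with 2.65 ± 1.64 CPM at low Pi and 1.44 ± 1.23 CPM at high Pi (SD, n = 10 each). It is a gene near the limit of detection here: 2 of the 10 high-Pi libraries held no read of it, the highest count in any library was 73, and the call was lost in 8 of 17 alternative fits, among them those without experiment A, B, C or D (adjusted p = 0.064, 0.24, 0.254 and 0.0783, with a difference of 0.53 without C). Neither was called in phr1 phl1, at 0.48 ± 0.34 and 0.35 ± 0.49, or in phr1, at 0.17 ± 0.21 and 0.42 ± 0.34.

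PHO1;H2 had no called Pi response with SynCom in any genotype. The log2 differences were 0.02 ± 0.50 in phr1 phl1, -0.41 ± 0.27 in phr1 and -0.11 ± 0.26 in Col-0. Its sign in Col-0 varied between experiments, from -1.32 to 1.16, and restricted to experiments C to E it was 0.96 (adjusted p = 0.0191).

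**Figure D4:**
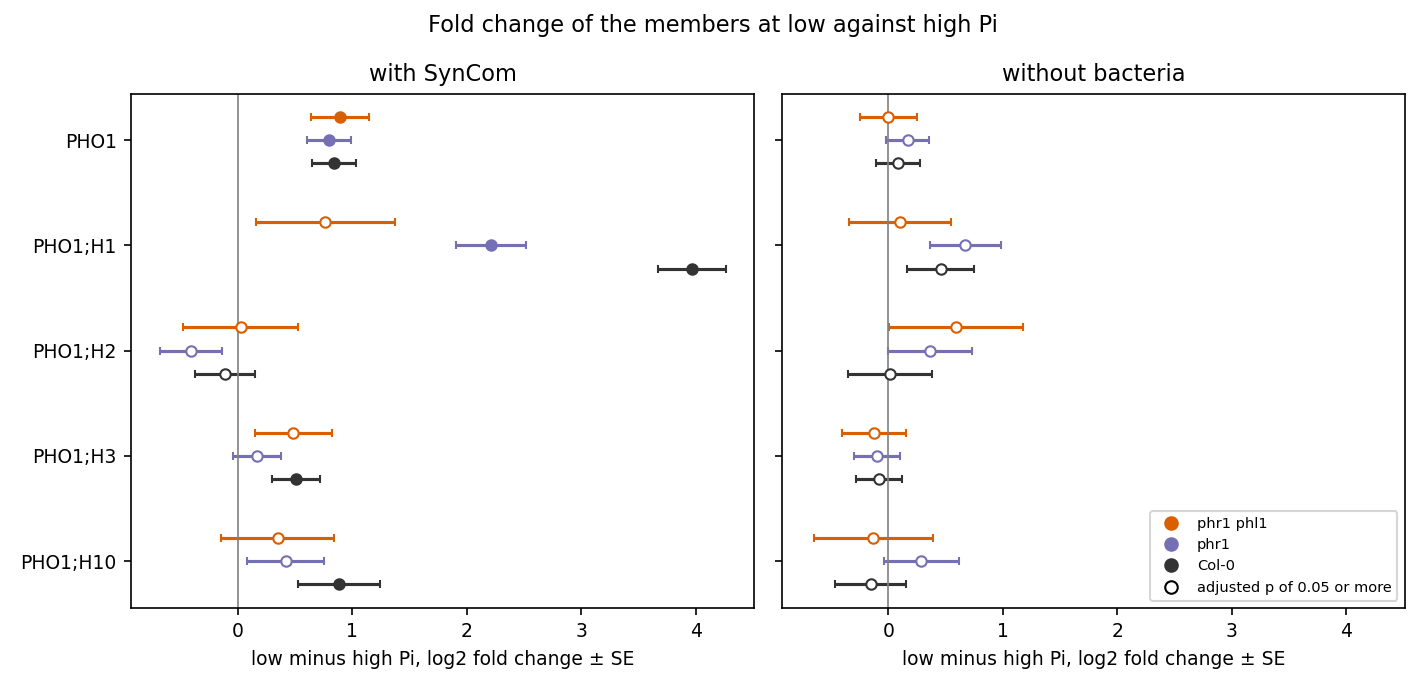
Log2 difference of low minus high Pi with its SE for the 5 genes in phr1 phl1, phr1 and Col-0, with SynCom and without bacteria, where open points have an adjusted p of 0.05 or more. PHO1;H1 with SynCom steps through 0.76, 2.21 and 3.97 in the 3 genotypes, PHO1 with SynCom stays at 0.89, 0.80 and 0.84, and without bacteria all points are open.

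Without bacteria, low Pi called none of the 5 genes in any genotype. In Col-0, 0.0264% of all loci passed this comparison, 5 loci in all, and in phr1 phl1 and in phr1 0% did by edgeR, although 1099 and 1028 loci had an unadjusted p under 0.05. DESeq2 called 4 and 76 loci there and limma-voom 0 and 0. The genotype by Pi interactions without bacteria likewise called 0% of all loci for phr1 phl1 and 0% for phr1, with 489 and 281 loci under an unadjusted p of 0.05, and DESeq2 and limma-voom called 0 in both. PHO1;H1 had log2 differences of 0.10 ± 0.44 in phr1 phl1, 0.67 ± 0.31 in phr1 (unadjusted p = 0.0309, adjusted p = 0.833) and 0.46 ± 0.30 in Col-0, the last 2 positive in 5 of 5 experiments. PHO1 had values of 0.00 ± 0.25, 0.17 ± 0.19 and 0.09 ± 0.19 in the same order.

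The dependence of the Pi effect on the bacteria was tested as an interaction. In Col-0 the Pi effect on PHO1;H1 was larger with SynCom than without by 3.51 ± 0.42 on the log2 scale (adjusted p = 2.27e-10), in 5 of 5 experiments, and that on PHO1 by 0.76 ± 0.27 (adjusted p = 0.0255), in 4 of 5. These 2 of the 5 genes passed, where 29.9% of all loci did. The PHO1 interaction missed the threshold in 7 of 18 alternative fits, among them those without experiment A, B, C or D (adjusted p = 0.0576, 0.11, 0.0647 and 0.119). PHO1;H10 had 1.04 ± 0.47 (adjusted p = 0.0849), and was called at 1.42 without experiment E.

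In phr1 the interaction for PHO1;H1 was 1.54 ± 0.43 (adjusted p = 0.0194), positive in 5 of 5 experiments, the single gene of the 5 where 5.85% of all loci passed. It missed the threshold in 6 of 18 alternative fits, among them those without experiment A, C or D (adjusted p = 0.0562, 0.0825 and 0.101). In phr1 phl1 none of the 5 passed, where 4.39% of all loci did. PHO1 had 0.894 ± 0.355 there (adjusted p = 0.119; 1.32 and called without experiment E) and PHO1;H1 had 0.66 ± 0.75 (adjusted p = 0.662).

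Seen from the side of the bacteria at low Pi, SynCom raised PHO1, PHO1;H1 and PHO1;H2 in phr1 and in Col-0. In phr1 these were 3 of the 5 genes, where 27.2% of all loci passed, and in Col-0 3 of the 5, where 44% did. These comparisons share their low-Pi SynCom libraries with those above. Markers moved in them too: of the 10 photosynthesis genes 7 fell in phr1 and 10 in Col-0, of the 11 stele genes 4 fell and none rose in phr1 while 2 rose and 2 fell in Col-0, and of the 4 epidermis genes 1 rose in phr1 and 3 in Col-0. Their part in these results was not tested. PHO1;H1 had 10.4, 54.0 and 155 CPM (lowest, median, highest) with SynCom in Col-0, against 2.59, 4.98 and 15.5 CPM without bacteria, and 8 of the 10 SynCom libraries were above all those without bacteria. The log2 difference was 1.48 ± 0.28 in phr1 (adjusted p = 1.36e-05) and 3.08 ± 0.27 in Col-0 (adjusted p = 2.82e-17). PHO1 differed by 0.60 ± 0.19 in phr1 (adjusted p = 0.0136) and by 0.67 ± 0.19 in Col-0 (adjusted p = 0.0027). The phr1 call was lost in 4 of 18 alternative fits, among them that without experiment D (0.33, adjusted p = 0.264), and the Col-0 call when restricted to experiments C to E (0.62, adjusted p = 0.0933).

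In phr1 phl1 at low Pi, SynCom called none of the 5 genes, where 14% of all loci passed, nor any photosynthesis or epidermis marker, and 2 stele markers fell. PHO1;H1 stood at 3.11 ± 2.20 CPM with SynCom and at 4.70 ± 3.09 CPM without bacteria (SD, n = 6 each), a log2 difference of -0.63 ± 0.50 that was negative in 3 of 3 experiments.

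PHO1;H2 was called higher with SynCom at both Pi levels in phr1 and in Col-0. At high Pi it was the single gene of the 5 called in phr1, where 5.13% of all loci passed, and in Col-0, where 4.11% did. In phr1 at high Pi it had 1.18, 4.87 and 20.5 CPM (lowest, median, highest) with SynCom, against 0.480, 1.40 and 2.61 CPM without bacteria. In Col-0 at high Pi it had 0.384, 6.32 and 17.2 CPM with SynCom, against 0.639, 1.60 and 4.07 CPM without.

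In both genotypes 6 of the 10 SynCom libraries were above all those without bacteria, while the rest overlapped. The log2 difference was 2.15 ± 0.32 in phr1 (adjusted p = 2.58e-07) and 1.99 ± 0.31 in Col-0 (adjusted p = 1.69e-06), each positive in 4 of 5 experiments. At low Pi it was 1.37 ± 0.32 in phr1 (adjusted p = 0.000433), positive in 4 of 5 experiments, and 1.87 ± 0.31 in Col-0 (adjusted p = 4.9e-07), positive in 5 of 5.

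At high Pi this response was seen mainly in experiments A, B and E. By experiment, the log2 differences at high Pi were 2.55, 3.18, -0.13, 0.42 and 1.74 for A to E in phr1, and 2.61, 3.04, 0.02, -0.01 and 1.43 in Col-0. Restricted to experiments C to E, the difference was 1.09 in phr1 (adjusted p = 0.131) and 0.86 in Col-0 (adjusted p = 0.322). At low Pi in Col-0 the response was spread over all the experiments, at 2.08, 1.46, 1.53, 1.04 and 2.26.

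In phr1 phl1, grown only in experiments C, D and E, PHO1;H2 was not called. Its log2 difference with SynCom was 1.16 ± 0.55 at high Pi (adjusted p = 0.267) and 0.59 ± 0.54 at low Pi (adjusted p = 0.52), with a value of 2.17 in experiment E at high Pi and of -0.64 and 0.49 in C and D. Whether the SynCom effect differed between the genotypes was not tested.

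**Figure D5:**
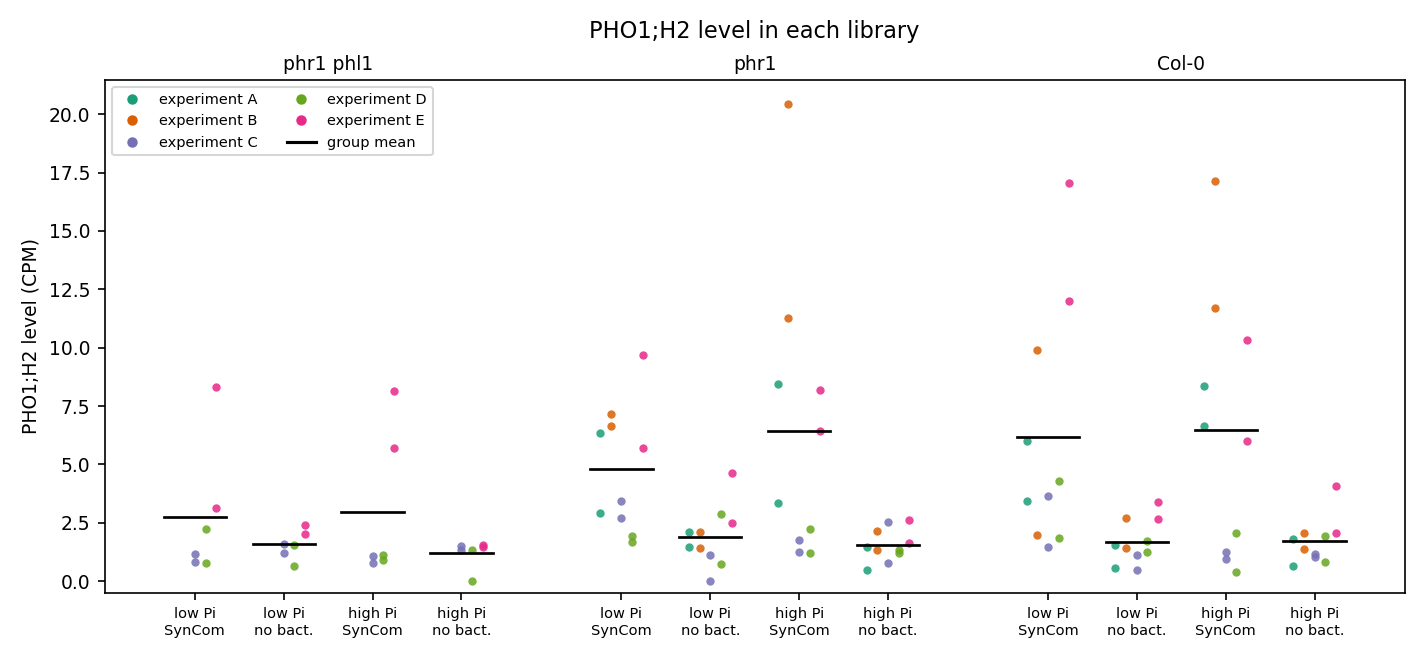
Level of PHO1;H2 in each library, in CPM on a linear axis, by group (phr1 phl1, phr1, then Col-0), with points coloured by experiment and a bar at the group mean. The SynCom groups of phr1 and Col-0 reach 9.69 to 20.5 CPM at their highest, against 2.61 to 4.63 CPM in the noBact groups of these genotypes, and many SynCom libraries lie in the noBact range.

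PHO1;H3 fell with SynCom in phr1 phl1 at high Pi, the single call among the 5 genes, where 2.4% of all loci passed. It had 3.35, 4.31 and 9.16 CPM (lowest, median, highest) with SynCom, against 2.66, 10.7 and 23.9 CPM without bacteria, so the groups overlapped. SynCom minus noBact was -1.12 ± 0.31 on the log2 scale (adjusted p = 0.0312), negative in 3 of 3 experiments. Without the 4 libraries that stood apart it was -0.73 (adjusted p = 0.158), and it missed the threshold in 8 of 18 alternative fits, also without experiment D (-0.70, adjusted p = 0.41) or E (adjusted p = 0.0608). PHO1 and PHO1;H1 had values of -0.68 ± 0.25 (adjusted p = 0.138) and -1.29 ± 0.54 (adjusted p = 0.196) in the same comparison, negative in 3 of 3 experiments each. In Col-0 at high Pi the value of PHO1;H10 was -0.90 ± 0.35 with SynCom (adjusted p = 0.164), and without experiment E it was -1.33 (adjusted p = 0.0222).

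Among the regulators tied to PHO1, PHO2 was higher in both mutants than in Col-0 when low Pi and SynCom were combined. PHO2, the enzyme that lowers PHO1 protein, averaged 676 ± 157 CPM in phr1 phl1 (SD, n = 6), 236 ± 52.9 CPM in phr1 and 116 ± 21.9 CPM in Col-0 (n = 10 each) at low Pi with SynCom. Its lowest phr1 phl1 library, at 554 CPM, was above the highest phr1 library, at 304 CPM, and the lowest phr1 library, at 158 CPM, above the highest Col-0 library, at 152 CPM. The log2 difference was 2.62 ± 0.17 for phr1 phl1 against Col-0 (adjusted p = 2.82e-23) and 1.00 ± 0.15 for phr1 against Col-0 (adjusted p = 2.49e-07). Over all conditions the median of PHO2 was 389 CPM (178 to 944) in phr1 phl1, 198 CPM (81.0 to 335) in phr1 and 156 CPM (70.3 to 309) in Col-0. The high level in phr1 phl1 was thus not confined to low Pi with SynCom, though its libraries cover experiments C, D and E only.

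The Pi effect on PHO2 with SynCom was 1.21 ± 0.19 in phr1 phl1 (adjusted p = 3.25e-06), 0.50 ± 0.15 in phr1 (adjusted p = 0.00848) and -0.42 ± 0.15 in Col-0 (adjusted p = 0.0164), so it had the opposite sign in the mutants. The interaction was 1.62 ± 0.24 for phr1 phl1 (adjusted p = 1.38e-06) and 0.91 ± 0.21 for phr1 (adjusted p = 0.00798). These are transcript levels, and PHO1 protein was not measured.

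WRKY6 rose in phr1 phl1 at low Pi with SynCom by 1.11 ± 0.33 (adjusted p = 0.0103), where PHO1 rose too. A link between the WRKY6 and PHO1 changes was not tested. WRKY6 was not called in phr1 (0.29 ± 0.24, adjusted p = 0.405) or Col-0 (0.16 ± 0.25, adjusted p = 0.618). WRKY42 was not called in any of the 3 genotypes, at -0.20 ± 0.46 in phr1 phl1, 0.29 ± 0.31 in phr1 and 0.05 ± 0.32 in Col-0. PHR1 fell by 0.44 on the log2 scale in low-Pi Col-0 with SynCom (SE 0.11, adjusted p = 0.000355), and PHL1 was not called there (0.14 ± 0.22).

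For scale, of 27 genes of Pi transport and signalling 25 were tested. At low Pi with SynCom, 12 rose and 1 fell in phr1 phl1, 16 rose and 3 fell in phr1, and 17 rose and 5 fell in Col-0. The median log2 difference of the list was 1.17 in phr1 phl1, 1.91 in phr1 and 2.74 in Col-0, against 0.01, 0.02 and 0.04 over all loci. The 4 with the smallest adjusted p in Col-0, outside the regulators above, were the Pi uptake transporter PHT1;2 (7.49 ± 0.39, adjusted p = 8.29e-36), SPX1 (5.75 ± 0.28, adjusted p = 9.84e-33), IPS1, a non-coding RNA that captures miR399 (10.44 ± 0.57, adjusted p = 3.68e-32), and the transporter PHT1;9 (5.04 ± 0.31, adjusted p = 9.6e-29). PHT1;2, IPS1 and PHT1;9 were at 0 in some libraries, so their fitted values depend on the prior count, and reads of PHT1;2 are uncertain because PHT1;1 is a near-identical copy.

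Of the other 6 genes of the family, 4 were tested. At low Pi with SynCom in Col-0, 1 of these rose and 2 fell, where 50% of all loci passed, so the count says little. AT1G26730 rose at low Pi to 7.16 ± 3.76 CPM, and had 3.29 ± 0.97 CPM at high Pi (SD, n = 10 each), a log2 difference of 1.21 ± 0.40 (adjusted p = 0.00912), and the effect was lower in phr1 phl1 than in Col-0 by -2.08 ± 0.72 (adjusted p = 0.0344). SHB1, known from light signalling and seed size, fell (-0.51 ± 0.22, adjusted p = 0.0457), as did AT1G35350 (-0.61 ± 0.23, adjusted p = 0.0224), which at 10.3 CPM per kb at low Pi was more abundant than 3 of the 5 genes. AT2G03240, at 9.01 CPM per kb, was not called for Pi. AT2G03250 and AT3G29060 never exceeded 3 and 2 counts in a library and were not tested.

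At high Pi, SHB1 rose with SynCom, by 0.97 ± 0.22 in phr1 (adjusted p = 0.00159) and by 0.86 ± 0.23 in Col-0 (adjusted p = 0.0105), the comparison in which PHO1;H2 rose. At low Pi with SynCom, phr1 phl1 differed from Col-0 by -1.39 ± 0.52 in AT1G26730 (adjusted p = 0.0285), 0.75 ± 0.30 in SHB1 (adjusted p = 0.0424) and 0.64 ± 0.26 in AT2G03240 (adjusted p = 0.0421).

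Across all libraries, with the experiment means removed, the levels of the 5 genes were only loosely alike. The highest Pearson correlation of log2 CPM within the 5 was 0.675, between PHO1;H1 and PHO1, and PHO1;H3 and PHO1 had 0.408. The libraries share their groups, so these values describe likeness and are given with no test. Among 18697 loci with a mean of at least 1 CPM, PHO1;H1 was most like ANNAT1, an annexin (0.876), AT3G43110 (0.872) and AT2G34210, annotated as an Spt5 elongation factor (0.866). PHO1 was most like NRT1.9, a nitrate transporter (0.841), AT1G77885 (0.841) and AT1G60680, annotated as an oxidoreductase (0.822).

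PHO1;H2 was most like AT4G21250, annotated as a sulfite exporter family protein (0.776), FLA6, a fasciclin-like arabinogalactan protein (0.76), and SULTR1;1, a sulfate transporter (0.745). For PHO1;H3 the closest was AT5G35580, annotated as a protein kinase (0.661), followed by CCR2, a cinnamoyl-CoA reductase, and the transporter ABCG35. PHO1;H10 had no close match, its highest being 0.534 with CAD5, a cinnamyl alcohol dehydrogenase.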

How the data were processed

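Read counts per TAIR10 locus were deposited by the authors as whole-number counts for every library. Per the labels' protocols the libraries were non-stranded and made from poly(A) RNA. The submitters' processing notes list HTSeq 0.6.1p1, TopHat2 2.1.1, cutadapt 1.3 and CASAVA 1.8, without settings. Counting was thus of the gene as a whole, and each gene's depth limits what can be seen.

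Groups came from the sample titles. Loci were filtered by filterByExpr over the 12 groups, which kept 18926 of 27206 loci (1788 had no count in any library). Counts were scaled by TMM and fitted with edgeR 4.0.16 (R 4.3.3) by a quasi-likelihood model with a term for each group and each of the 5 experiments, and 31 contrasts were tested. p-values were adjusted by Benjamini-Hochberg over all loci tested, at a threshold of 0.05. SE is the size of the log2 difference divided by the square root of its F value. SD is over libraries. The fit was tested on simulated data first. Comparisons by experiment used the 2 libraries of each group and are given with no test. Alternatives included DESeq2 1.42.0, limma-voom (limma 3.58.1), other scalings and filters, and leaving out each experiment.

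Nothing says that the 2 libraries of a group within an experiment came from separate cultures, so p-values measure the spread between libraries, which may be partly technical. Over 420 pairs of libraries of a group the lowest chi-square per degree of freedom was 1.92, so no library was a copy of another of its group. Libraries of different groups were not compared in this way. Deviations from the group means correlated at a median of 0.508 for libraries with the same experiment and number, 0.505 for the same experiment and the other number, and -0.29 across experiments, so the experiment, already in the model, pairs the libraries and the number adds no pairing. The phr1 phl1 comparisons set experiments C, D and E beside A to E, with the experiment as a term. Comparisons with a common group share its libraries.

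The 5 genes and all gene lists were chosen with earlier results of these data known. The genes named by likeness are the 3 with the highest correlation for each of the 5, with a prior count of 2. Positions and sequences are from RefSeq's TAIR10.1, whose gene table held 26719 of the 27206 loci, and the submitters' notes name TAIR10. No column was left unmapped. The sequences of the other W-box matches before PHO1 are not reported here.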

Additional observations from a re-analysis of the deposited data

Results flagged for a closer look

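Of 60 pairs of a gene and a group, 12 had a highest or lowest library set far from the rest by Dixon's gap test. Its cut-off, at 1 in 20, would flag 3 pairs if values were independent and normal. These are untransformed CPM, some from few counts, and libraries of an experiment resemble each other. That rate therefore does not apply, and nothing is drawn from the excess. Libraries of experiment E account for 5 of the 12. PHO1 in phr1 phl1 at high Pi with SynCom had 163.9 CPM in library 2 of experiment E, and PHO1;H3 had 9.16 CPM in the same library. PHO1;H1 had 11.02 CPM in phr1 at high Pi with SynCom (experiment E, library 2), and PHO1;H2 had 8.34 CPM in phr1 phl1 at low Pi with SynCom and 4.07 CPM in Col-0 at high Pi with no bacteria (library 1 of experiment E in both).

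In experiment A, library 1 was high for PHO1;H10 in 3 groups: 9.33 CPM in Col-0 at high Pi with no bacteria, 6.04 CPM in phr1 at high Pi with no bacteria and 8.69 CPM in phr1 at low Pi with SynCom. In experiment B, library 2 of Col-0 at low Pi with SynCom had 155.0 CPM of PHO1;H1, against 73.1 CPM in the next, and library 1 of phr1 at high Pi with SynCom had 20.45 CPM of PHO1;H2. In experiment D, library 1 of phr1 at high Pi with no bacteria had 30.3 CPM of PHO1;H3 and library 1 of phr1 phl1 in that condition held 0 reads of PHO1;H2, and both are among the 4 libraries that stood apart.

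The effect of Pi differed between groups by a test of the difference itself in 5 cases. For PHO1;H1 it was larger with SynCom than without by 1.54 on the log2 scale in phr1 and by 3.51 in Col-0, and with SynCom it was lower than in Col-0 by -3.21 in phr1 phl1 and by -1.76 in phr1. For PHO1 it was larger with SynCom than without by 0.76 in Col-0. The adjusted p-values of these stand with the results above.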

How the results depend on the processing

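Whole seedlings of 3 genotypes give sums over tissues, the libraries within an experiment may not be independent, and PHO1;H10 and, in phr1 phl1, PHO1;H1 and PHO1;H2 rest on few reads. Across 18 alternatives, 2687 values for single genes kept their side of the threshold, 58 lost a call, 9 gained one and 1 reversed with a call. These counts do not show whether values without a call kept their direction. Without TMM scaling, 0 of 60 group means moved by more than their SD.

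The reversed value was PHO1;H2 at low against high Pi in Col-0 with SynCom, at 0.96 (adjusted p = 0.0191) when restricted to experiments C to E, against -0.11 in all. The calls that held in all alternatives were, for PHO1;H1, low against high Pi with SynCom in phr1 (2.05 to 2.44) and Col-0 (3.53 to 4.46), SynCom at low Pi in phr1 (1.38 to 1.56) and Col-0 (2.62 to 3.47), the 3 genotype differences at low Pi with SynCom, the interaction of Pi and SynCom in Col-0 (3.06 to 3.94) and the genotype by Pi interaction of phr1 phl1 (-3.72 to -2.75). PHO1 at low Pi in Col-0 with SynCom and PHO1;H2 with SynCom at low Pi in phr1 and Col-0 also held.

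The count of the 5 genes called moved as follows, and the cause was not tested unless given. Smaller moves were from 4 to 3 for low against high Pi in Col-0 with SynCom by limma-voom, with no filter, with the groups compared alone and with unadjusted deviances (added after seeing the data), and from 3 to 2 for SynCom at low Pi in phr1 with summed libraries, with no experiment term and in experiments C to E, and in Col-0 in C to E. By limma-voom the interaction of Pi and SynCom in Col-0 had 3 in place of 2. Restricted to experiments C to E, it was 1 in place of 2 for the interaction of Pi and SynCom in Col-0, 0 in place of 1 for that in phr1, for SynCom at high Pi in each genotype and for the phr1 genotype by Pi interaction, and 2 in place of 1 for phr1 phl1 against Col-0 at low Pi with SynCom. With the libraries of an experiment summed, it was 2 in place of 4 for low against high Pi in Col-0 with SynCom, 1 in place of 2 for the interaction of Pi and SynCom in Col-0, and 0 in place of 1 for that in phr1, for SynCom at high Pi in phr1 phl1 and for the phr1 genotype by Pi interaction. With no experiment term the counts were those with summed libraries, and also 0 in place of 1 for low against high Pi in phr1 phl1 with SynCom. With the groups compared alone, it was 0 in place of 1 for SynCom at high Pi in each genotype (PHO1;H2 then fails the filter in Col-0 and phr1), for low against high Pi in phr1 phl1 with SynCom and for the phr1 genotype by Pi interaction. By limma-voom it was also 0 in place of 1 for SynCom at high Pi in phr1 phl1 and for the phr1 genotype by Pi interaction. With a filter of 5 CPM it was 2, and with upper-quartile scaling 3, in place of 1 for phr1 phl1 against Col-0 at low Pi with SynCom. Without the 4 libraries that stood apart, an alternative added after seeing the data, it was 0 in place of 1 for SynCom at high Pi in phr1 phl1.

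With each experiment left out in turn, the count ranged from 1 to 3 for the interaction of Pi and SynCom in Col-0, from 0 to 1 for that in phr1 and in phr1 phl1, from 1 to 2 for SynCom at high Pi in Col-0, from 0 to 1 for SynCom at high Pi in phr1 phl1 and for the phr1 genotype by Pi interaction, from 2 to 3 for low against high Pi with SynCom in Col-0, from 1 to 2 in phr1 and from 0 to 1 in phr1 phl1, from 2 to 3 for SynCom at low Pi in phr1, and from 1 to 2 for phr1 phl1 against Col-0 at low Pi with SynCom. PHO1;H2 gained a call in that comparison when restricted to experiments C to E (-1.28, adjusted p = 0.00393). A replicate block of experiment and number changed no call: PHO1;H1 at low Pi in Col-0 with SynCom was 3.96 (adjusted p = 1.91e-20) with the block.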
